A study of Arabidopsis thaliana with 8 samples.

Results

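The CPK genes of Arabidopsis thaliana encode calcium-dependent protein kinases, and they were described here in flower buds and roots of the accession Col-0. Members were all genes whose RefSeq symbol is CPK or CDPK followed by a number, less 1 gene that is not reported. This gave 33 genes, of which 31 had a matched probe among 25383 genes with a probe on the array. CPK22 (AT4G04710) and CPK23 (AT4G04740) had no matched probe and were not measured. Where RefSeq uses a CDPK symbol the more common CPK name is given: CDPK6 is CPK3, CDPK19 is CPK8, CDPK1 is CPK10, CDPK2 is CPK11 and CDPK9 is CPK12.

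Total RNA was measured on 8 one-colour arrays, 4 of flower buds and 4 of roots, from Col-0 plants grown in hydroponics to an age of 6 weeks. Each array carried tissue pooled from 8 to 10 plants. All 8 arrays lay on 1 slide, with flower buds in one row and roots in the other, and the effect of the row cannot be told apart from that of the tissue. The labels were checked against marker genes. The summed linear signal of 4 floral identity genes, relative to the 75th percentile of each array, was 23.4 to 31.0 in flower buds and 0.257 to 0.383 in roots, and that of 7 root genes was 0.264 to 0.544 in flower buds and 246 to 276 in roots.

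A calcium-dependent protein kinase joins a serine/threonine kinase domain to a calmodulin-like domain with EF hands, which bind calcium. Calcium binding relieves the block that a junction segment places on the kinase, so that a single protein both senses the calcium signal and phosphorylates targets. Different members are known for work in guard cells, where they act on anion and potassium channels, in immune signalling, in nitrate signalling, and in the tip growth of pollen tubes. By sequence the family is divided into subgroups I to IV.

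Values of a gene are log2 of the processed signal of its probe relative to the 75th percentile of the array. Each difference is the flower bud mean less the root mean of these log2 values, ± SE with n = 4 arrays per tissue, so a positive difference is higher in flower buds. Calls needed a difference of 2-fold or more and an adjusted p below 0.05 from limma, with Benjamini-Hochberg adjustment over all genes tested. A probe that was well above background on 0 arrays of a tissue has only a bound there, and its fold carries the words "at least". Such a bound compares means and has no interval, so single arrays can lie below it. Levels of different probes are not set against each other.

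More CPK genes were called higher in roots than in flower buds. Members described in pollen tubes were called in both directions, with CPK17, CPK20 and CPK24 higher in flower buds and CPK2, CPK11 and CPK32 higher in roots. The 3 calls towards flower buds are the less certain, as each probe was well above background on 0 root arrays. CPK17 and CPK20 were not called with normexp background correction, and the other probe of CPK24 differed by 0.33. All 31 genes with a probe were tested. Of these, 5 were higher in flower buds (16.1%) and 13 were higher in roots (41.9%), while 13 were not called; with scaling on reference genes, which moved the median difference of all genes by 0.47, the counts were 7 and 8. Over all 22197 genes tested, 29.8% were higher in flower buds and 25.3% were called towards roots, so that calls in either direction took 58.1% of the CPK genes and 55.0% of all genes. The share of CPK genes called was thus near that of all genes. Of all calls, 54.1% were towards flower buds, or 66.4% with scaling on reference genes. A fitted difference of 8-fold or more, with signal not well above background included, was found in 8 of 31 CPK genes and in 23.6% of all genes. One of the 8 is CPK17, whose bound is at least 3.27-fold. The median difference of the CPK genes was -0.75, against 0.12 over all genes tested. It lay below 0 under each alternative processing, from -0.98 for the members well above background on each of the 8 arrays to -0.28 with scaling on reference genes. Measured values of the tissues, also those not well above background, did not overlap for 28 of 31 CPK genes, a pattern that 79.2% of all genes tested showed.

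**Figure D1:**
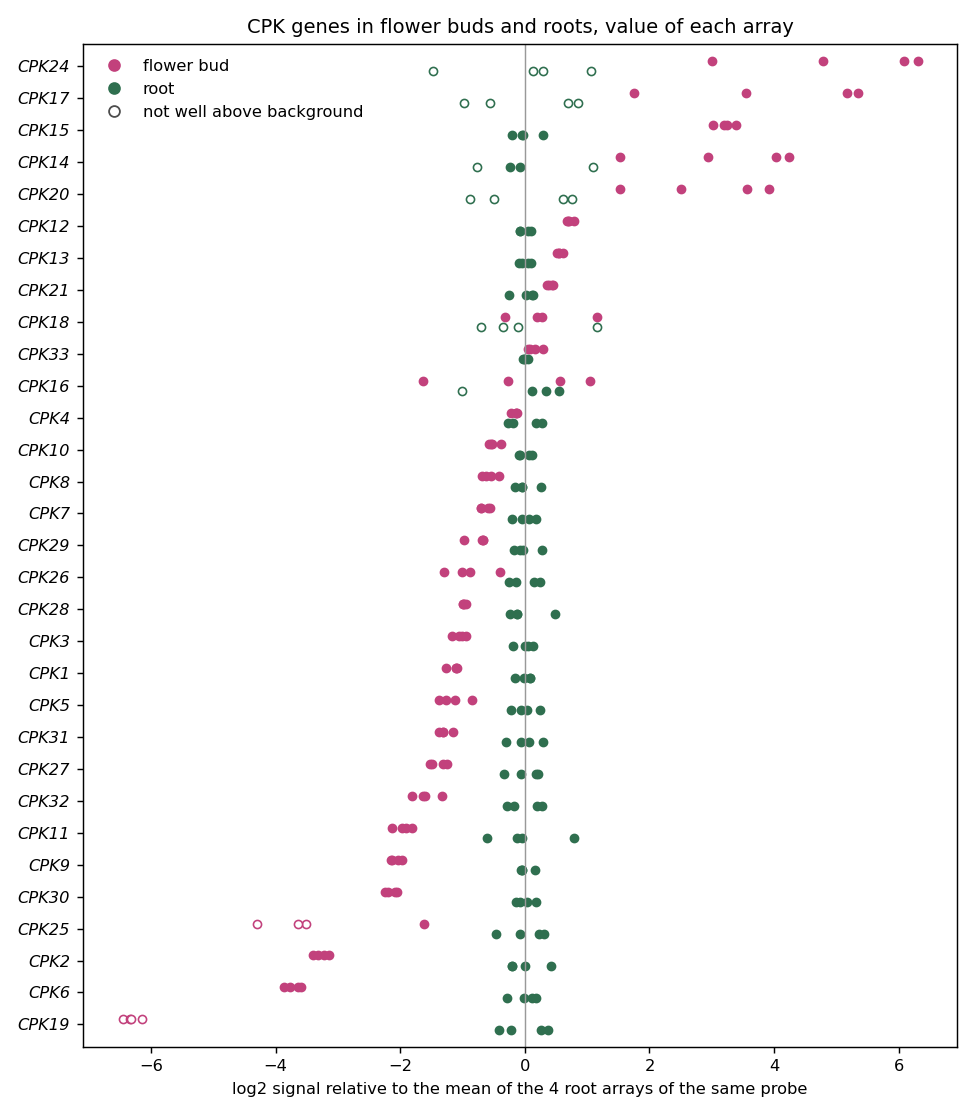
Log2 signal of each CPK gene on each array, relative to the mean of the 4 root arrays of the same probe. Each point is 1 array, open points were not well above background, and genes are sorted by their difference. CPK24 to CPK20 at the top have widely spread flower bud points, except CPK15, and CPK19 at the bottom has the lowest flower bud points, none of them well above background.

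Limiting the comparison to probes well above background on each of the 8 arrays left 23 CPK genes, with 1 called towards flower buds and 11 towards roots. Over the 17900 genes left, 46.9% were called, 21.7% towards flower buds and 25.2% towards roots. The gene higher in flower buds was CPK15 (AT4G21940). Its values were -2.01, -2.24, -2.06 and -1.87 in flower buds and -5.31, -4.97, -5.29 and -5.46 in roots. Both tissues were tightly grouped and far apart, at a difference of 3.21 ± 0.13, or 9.27-fold (limma adjusted p = 9.60e-08), and at 2.25 with normexp background correction.

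The other 4 genes higher in flower buds, CPK24, CPK17, CPK14 and CPK20, were near or below background in roots and varied strongly between the flower bud arrays. CPK24 (AT2G31500), a kinase known to inhibit the pollen potassium channel SPIK, had values of -1.87, -2.09, -3.38 and -5.18 in flower buds and -9.66, -7.89, -8.04 and -7.11 in roots. Its bound was at least 10.3-fold towards flower buds, with a fitted difference of 5.04 ± 0.81 (limma adjusted p = 0.000461). CPK17 (AT5G12180), which acts in pollen tube growth, had values of -3.39, -3.56, -5.20 and -6.99 in flower buds and -9.72, -7.89, -8.04 and -9.30 in roots. Measured values did not overlap for these 2 genes, but both were well above background on 0 root arrays, so their root values give no rank. For CPK17 the bound was at least 3.27-fold (fitted difference 3.96 ± 0.83, limma adjusted p = 0.00223). That bound rests on the flower bud mean, and flower bud replicate 4 of CPK17 lay below the mean root level it uses. Without flower bud replicate 4 the fitted differences were 5.73 for CPK24 and 4.69 for CPK17.

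CPK20 (AT2G38910), described as an activator of the anion channel SLAH3 in pollen tubes, had values of -4.74, -5.08, -6.14 and -7.12 in flower buds and -9.53, -7.89, -8.04 and -9.14 in roots. It was called on a fitted difference of 2.88 ± 0.59 (limma adjusted p = 0.00189) against root signal not well above background. The bound was at least 1.65-fold, which is under the 2-fold needed for a call. Flower bud replicate 4 of CPK20 also lay below the mean root level used for its bound. On root replicates 2 and 3, CPK17, CPK20 and CPK24 had the same value, which is the floor to which the scanner software raised dim spots, so that these root values have no order. CPK18 was at the same floor on root replicate 2. CPK14 (AT2G41860) had values of -2.60, -2.82, -3.90 and -5.31 in flower buds and -6.92, -5.76, -7.62 and -7.08 in roots, where it was well above background on 2 of 4 arrays. The difference of CPK14 was 3.19 ± 0.64 (limma adjusted p = 0.00173). With normexp background correction the differences of CPK17 and CPK20 were 1.21 and 0.23, neither called, while CPK24 at 2.33 and CPK14 at 1.40 were called.

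The 2 probes of CPK24 disagreed. The probe in use was the brighter on average, by the rule for choosing probes. The other probe was well above background on each of the 8 arrays, with values of -3.30, -3.34, -3.45 and -3.48 in flower buds and -3.48, -3.61, -4.02 and -3.79 in roots. It differed by 0.33 ± 0.13, under 2-fold, and its flower bud arrays lay close together. The mean of both probes gave a difference of 2.69. Which transcripts the second probe reads was not tested.

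**Figure D2:**
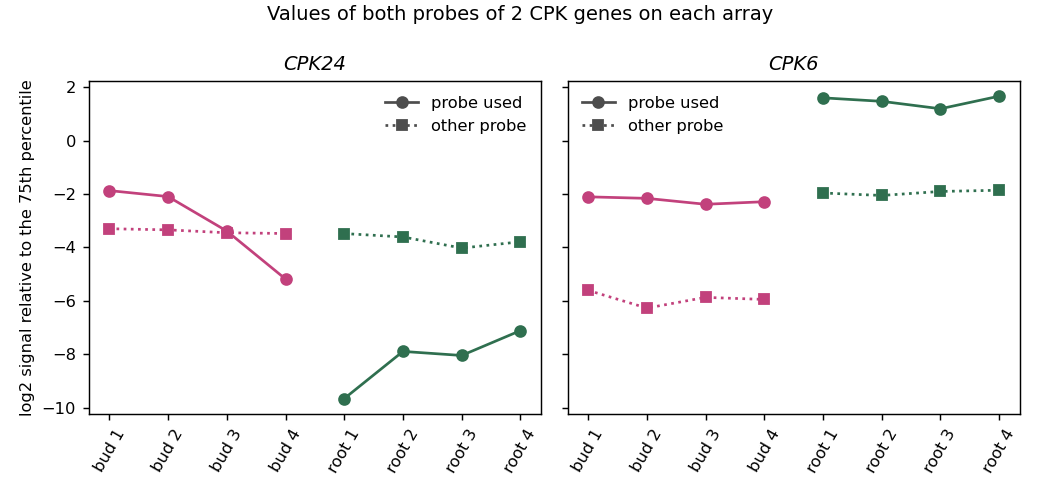
Log2 signal relative to the 75th percentile on each array for both probes of CPK24 and of CPK6, with flower bud arrays left of root arrays. The probe used for CPK24 covers values of -1.87 to -9.66 while its other probe stays between -3.30 and -4.02, and the probes of CPK6 show differences of -3.72 and -3.98.

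Replicate flower bud arrays differed from each other in the same members. Of the 29 CPK genes well above background on all 4 flower bud arrays, CPK14, CPK16, CPK17, CPK20 and CPK24 spanned 2.38 to 3.60 log2 units between their highest and lowest flower bud array. CPK18 spanned 1.47 and CPK26 0.90, and each of the other 22 spanned at most 0.53. A span of 2 or more, a limit set after these values were seen, was found in these 5 of 29 CPK genes (17.2%) and in 4.01% of 21120 genes. In all 5 genes replicate 1 was highest and replicate 4 lowest, which held together with such a span for 3.02% of all genes. Between root arrays, 0 of the 25 CPK genes well above background on all of them spanned 2 or more, against 1.58% of 18977 genes. These 25 leave out all 5 genes with wide spans in flower buds. CPK14 was well above background on 2 root arrays, CPK16 on 3, and CPK17, CPK20 and CPK24 on 0. The root count therefore cannot tell whether these 5 genes also vary between root pools.

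Late pollen markers moved with these 5 genes, and other marker lists showed the same order with smaller spans. The median deviation of 15 pollen markers from their flower bud mean was 0.94, 0.43, -0.26 and -1.04 on replicates 1 to 4. CPK17 deviated by 1.39, 1.22, -0.41 and -2.20, and CPK16 by 1.12, 0.64, -0.20 and -1.56. The summed linear signal of the 15 markers, relative to the 75th percentile, was 23.2, 15.6, 10.2 and 6.66 on flower bud replicates 1 to 4 and 1.42 to 2.13 on the root arrays. Of the markers, 14 of 15 were called higher in flower buds, and 8, among them VGD1, PPME1 and AHA9, were well above background on 0 root arrays. With normexp correction 12 were called higher in flower buds. Of the 3 markers well above background on each of the 8 arrays, 2 were called higher in flower buds. TUA1 was not called (-0.15) and, with AHA8 and CNGC18, was well above background on all root arrays. Median deviations also followed this order for the 3 root markers well above background on all flower bud arrays (0.42, 0.15, -0.18 and -0.39), for 5 guard cell markers (0.30, 0.20, -0.12 and -0.30) and for 4 floral markers (0.19, 0.09, -0.10 and -0.17). They did not for 3 tapetum markers (0.12, -0.41, 0.16 and 0.14) or 3 green tissue markers (0.02, 0.04, -0.05 and -0.01). In tissue RNA, fewer pollen grains and less of a transcript per grain cannot be told apart, and the part of pollen content, or of the other cell types, in these CPK values was not tested.

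**Figure D3:**
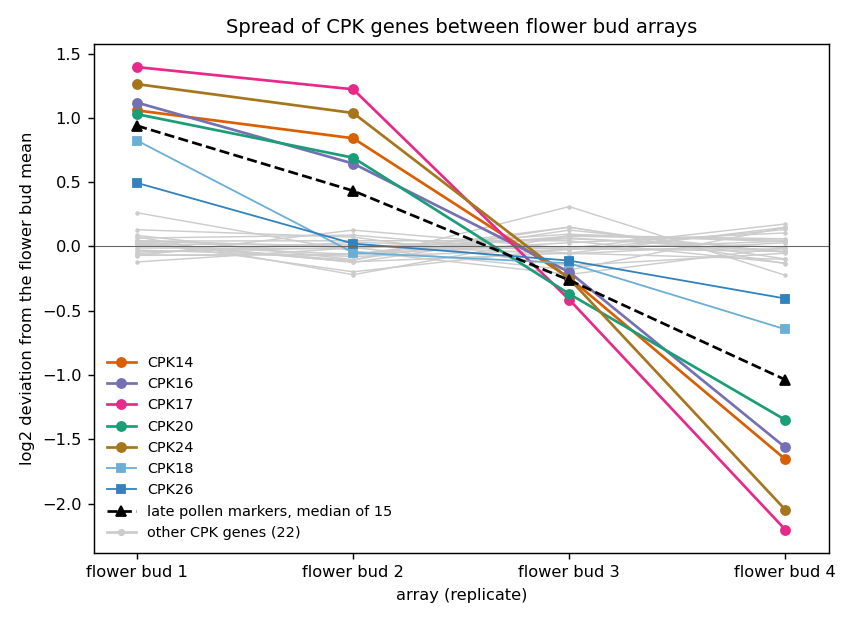
Log2 deviation of each CPK gene from its flower bud mean on the 4 flower bud arrays, with the median of 15 late pollen markers as a dashed line. Coloured circles are the 5 genes spanning 2.38 or more, squares are CPK18 and CPK26, and the 22 other genes in grey lie within 0.31 of their means.

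CPK16 (AT2G17890), of subgroup IV, had that spread but was not called. Its values were -4.23, -4.70, -5.54 and -6.91 in flower buds and -4.73, -4.92, -6.27 and -5.14 in roots. The tissues overlapped, and the difference of -0.08 had a 95% interval from -1.46 to 1.30. CPK18 (AT4G36070), also of subgroup IV, was dim, with -6.03, -6.90, -6.99 and -7.50 in flower buds and -7.53, -7.89, -6.02 and -7.29 in roots. It was well above background on 0 root arrays and has no fold, since its bound was under 1. Its fitted difference was 0.33 (95% interval -0.70 to 1.36), and -0.63 with normexp correction.

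On the root side, CPK19 (AT1G61950) had the largest fitted difference and was well above background on 0 flower bud arrays. Its values were -9.89, -10.20, -10.08 and -10.06 in flower buds and -3.48, -3.37, -3.96 and -4.16 in roots. All root arrays lay far above all flower bud arrays. The bound was at least 17.9-fold higher in roots, with a fitted difference of -6.31 ± 0.19 (limma adjusted p = 1.57e-08), or -2.85 with normexp correction. CPK25 (AT2G35890), which lacks the calcium-binding EF hands of its relatives, had values of -6.60, -9.28, -8.50 and -8.62 in flower buds and -4.68, -4.76, -5.06 and -5.45 in roots. Only flower bud replicate 1 was well above background. The difference of CPK25 was -3.27 ± 0.53 (limma adjusted p = 0.000473) and was -1.67 with normexp correction.

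Several kinases of immune and abscisic acid signalling in subgroup I were also higher in roots. CPK6 (AT2G17290), which acts in guard cells and in immunity, had values of -2.10, -2.16, -2.38 and -2.29 in flower buds and 1.60, 1.47, 1.19 and 1.67 in roots. The tissues were far apart, at -3.72 ± 0.13 or 13.2-fold higher in roots (limma adjusted p = 3.32e-08). Its other probe gave -3.98 ± 0.14. CPK2 (AT3G10660), described in immune signalling and in pollen tubes, had values of -2.97, -3.14, -2.88 and -3.06 in flower buds and 0.68, 0.26, 0.05 and 0.06 in roots, a difference of -3.27 ± 0.15 or 9.66-fold higher in roots (limma adjusted p = 2.14e-07). Unlike CPK20, which shares the reported pollen channel target, CPK2 spanned 0.25 between flower bud arrays.

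CPK11 (AT1G35670), a positive regulator of abscisic acid signalling that is also described as acting on CPK24 in pollen, had values of 0.07, 0.02, -0.15 and 0.18 in flower buds and 1.93, 1.86, 1.38 and 2.77 in roots. All root arrays were higher, although root replicates 3 and 4 were 1.39 apart, the widest span among the 25 CPK genes well above background on all root arrays. The difference was -1.96 ± 0.27 (limma adjusted p = 0.000171).

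CPK5 (AT4G35310), which phosphorylates the oxidase RBOHD in immune responses, had values of 0.36, 0.23, 0.65 and 0.11 in flower buds and 1.73, 1.53, 1.26 and 1.43 in roots. CPK1 (AT5G04870), also of immune signalling, had values of 0.73, 0.74, 0.74 and 0.56 in flower buds and 1.68, 1.91, 1.82 and 1.92 in roots. For both genes every root array lay above every flower bud array, with differences of -1.15 ± 0.15 for CPK5 (limma adjusted p = 0.000118) and -1.14 ± 0.09 for CPK1 (limma adjusted p = 5.79e-06). With scaling on reference genes each differed by -0.68 and was not called.

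The remaining genes of subgroup I were not called. CPK4 (AT4G09570), which acts with CPK11 in abscisic acid signalling, had values of 0.31, 0.31, 0.24 and 0.33 in flower buds and 0.63, 0.74, 0.27 and 0.19 in roots. These arrays overlapped, and the difference of -0.16 had a 95% interval from -0.47 to 0.15. CPK12 (AT5G23580), a negative regulator of abscisic acid responses, had values of 1.07 to 1.18 in flower buds and 0.32 to 0.50 in roots. Flower bud arrays were higher throughout, but the difference of 0.71 ± 0.08 was under 2-fold. CPK26 (AT4G38230) had values of -2.71, -3.18, -3.32 and -3.61 in flower buds and -2.16, -2.06, -2.45 and -2.56 in roots, a difference of -0.90 ± 0.20 with no overlap.

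Nitrate signalling kinases of subgroup III all differed towards roots, though not all by enough for a call. CPK30 (AT1G74740), CPK32 (AT3G57530) and CPK10 (AT1G18890) phosphorylate the nitrate regulator NLP7. CPK30 had values of -1.47, -1.45, -1.59 and -1.64 in flower buds and 0.79, 0.52, 0.47 and 0.64 in roots, a difference of -2.14 ± 0.10 or 4.42-fold higher in roots (limma adjusted p = 2.17e-07). CPK32, which also regulates the pollen calcium channel CNGC18, had values of 1.35, 1.06, 0.87 and 1.08 in flower buds and 2.40, 2.52, 2.88 and 2.96 in roots (difference -1.60 ± 0.16, limma adjusted p = 2.55e-05). All root arrays of both genes were higher. CPK10 had values of -1.86, -1.66, -1.80 and -1.83 in flower buds and -1.21, -1.38, -1.37 and -1.17 in roots, again without overlap, but its difference of -0.50 ± 0.09 was under 2-fold. NLP7 itself differed by -2.14 ± 0.12 and its relative NLP6 by -2.19 ± 0.10, both called higher in roots.

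CPK7, CPK8 and CPK13 of subgroup III had smaller differences. CPK7 (AT5G12480), described in the control of root water channels, differed by -0.64 ± 0.10, and CPK8 (AT5G19450), which acts on the catalase CAT3, by -0.56 ± 0.11, or -0.78 ± 0.13 by its other probe. CPK13 (AT3G51850), an inhibitor of guard cell potassium channels, differed by 0.56 ± 0.08, and its other probe by 0.09 ± 0.15. All 3 passed the adjusted p but were under 2-fold.

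**Figure D4:**
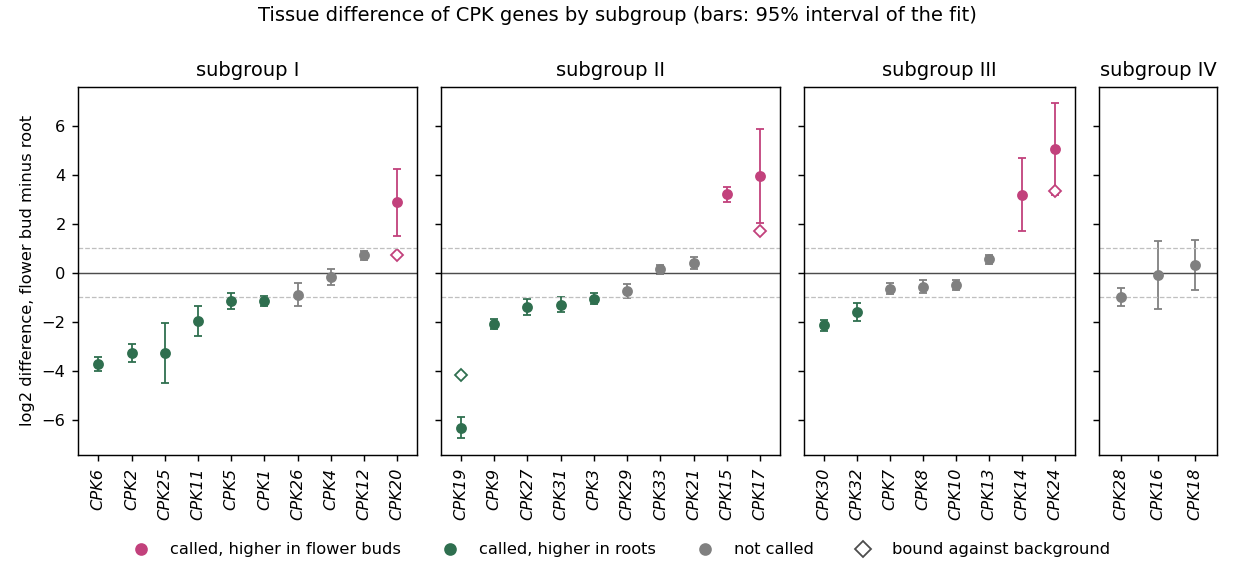
Fitted log2 difference of each CPK gene, flower bud minus root, by subgroup, with 95% intervals of the limma fit and open diamonds for bounds. Subgroup IV has 0 called genes of 3, where 55.0% of all genes tested were called. The other subgroups each hold called genes in both directions. In subgroup I the only call towards flower buds is CPK20, which was not called with normexp correction.

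In subgroup II, CPK9 (AT3G20410), a guard cell regulator, had values of -0.17, -0.17, -0.07 and 0.00 in flower buds and 1.92, 1.92, 1.90 and 2.13 in roots. Its difference was -2.07 ± 0.09, or 4.20-fold higher in roots (limma adjusted p = 1.46e-07). CPK3 (AT4G23650), which acts in guard cell abscisic acid signalling, had values of 2.31, 2.41, 2.52 and 2.46 in flower buds and 3.60, 3.53, 3.28 and 3.48 in roots. No arrays overlapped, and the difference of -1.05 ± 0.10 lay just past 2-fold (limma adjusted p = 1.56e-05). Its difference was -0.97 with normexp correction, -0.85 with quantile normalization and -0.58 with scaling on reference genes. CPK33 (AT1G50700), which phosphorylates the flowering regulator FD, averaged -0.82 ± 0.11 in flower buds and -0.97 ± 0.03 in roots (SD, n = 4 each). Its arrays did not overlap, but the difference of 0.15 had a 95% interval from -0.05 to 0.34 and was not called. CPK29 (AT1G76040), which acts on PIN auxin carriers, differed by -0.75 ± 0.12 and was not called, while its other probe gave -1.13 ± 0.18.

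A cluster on chromosome 4 holds CPK31, CPK27, CPK22, CPK21 and CPK23 in this order, with AT4G04730 between the last ones. CPK31 (AT4G04695), described in arsenite uptake with the channel NIP1;1, had values of -1.68, -1.73, -1.68 and -1.52 in flower buds and -0.06, -0.28, -0.66 and -0.42 in roots. Its neighbour CPK27 (AT4G04700), described in salt tolerance, had values of -3.16, -3.35, -3.09 and -3.38 in flower buds and -1.64, -1.66, -1.90 and -2.19 in roots. Both were called higher in roots, CPK31 at -1.29 ± 0.13 and CPK27 at -1.40 ± 0.14 (limma adjusted p = 3.13e-05 and 2.88e-05). With scaling on reference genes they were -0.83 and -0.93, and neither was called. CPK21 (AT4G04720), an activator of guard cell anion channels, had values of 1.23, 1.32, 1.27 and 1.33 in flower buds and 1.01, 1.00, 0.90 and 0.62 in roots. Its difference of 0.41 ± 0.11 ran the other way and was not called.

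The last gene of subgroup IV, CPK28 (AT5G66210), which limits immune signalling through the kinase BIK1, lay at the threshold. Values were 0.63, 0.58, 0.56 and 0.56 in flower buds and 1.33, 1.44, 1.44 and 2.05 in roots, with root replicate 4 apart from the rest. Its difference of -0.98 ± 0.16 was not called. It was past 2-fold, at -1.06, -1.02 and -1.02, without root replicates 1, 2 and 3, and -0.82 without root replicate 4. The other probe of CPK28 gave -0.58 ± 0.31, with root replicate 4 again the highest.

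To ask whether related genes differed in their tissue difference, the log2 ratio of 8 gene pairs was compared between flower buds and roots with exact two-sided permutation tests over the 8 arrays. The smallest p this design allows is 0.0286, and p-values were adjusted over the 8 pairs. The value given is the difference of the first gene less that of the second, so a negative value means that the first gene was further towards roots. It was -2.57 ± 0.17 for CPK6 against CPK5, -2.22 ± 0.10 for CPK9 against CPK33 and -2.13 ± 0.20 for CPK2 against CPK1. CPK11 against CPK4 gave -1.80 ± 0.36, CPK30 against CPK10 gave -1.64 ± 0.06 and CPK21 against CPK31 gave 1.70 ± 0.13. Each of these 6 pairs had the smallest possible exact p of 0.0286 (adjusted 0.0381). A pair reaches this p whenever its ratios in the tissues do not overlap. For values of genes taken alone, such a lack of overlap was found in 79.2% of all genes tested. How often pairs of unrelated genes reach the same p was not tested, so these p-values do not set related genes apart from other genes. For CPK7 against CPK8 the value was -0.07 ± 0.16 (exact p = 0.657, adjusted 0.657) and for CPK31 against CPK27 it was 0.10 ± 0.15 (exact p = 0.514, adjusted 0.588). Whether transcripts of close relatives bind the same probe was not tested.

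Genes related to the CPK family or acting with it were examined as lists. They are set beside the 55.0% of all genes that were called, 29.8% towards flower buds and 25.3% towards roots. The CDPK-related, the transcription factor and enzyme, and the calmodulin lists held only genes well above background on each of the 8 arrays. Among all such genes 46.9% were called, 21.7% towards flower buds and 25.2% towards roots. Of 12 CDPK-related and phosphoenolpyruvate carboxylase kinases, 0 were higher in flower buds and 5 in roots, with a median difference of -0.90. With scaling on reference genes 1 was higher in flower buds and 4 in roots. The largest were PPCK2 at -6.15 ± 0.28 and PPCK1 at -2.65 ± 0.21, both kinases of phosphoenolpyruvate carboxylase. Of 13 channels, pumps and oxidases described as CPK targets or partners, 5 were higher in flower buds and 5 in roots (4 and 5 with normexp correction). The guard cell potassium channels KAT1 and KAT2 were at least 44.3-fold and 14.0-fold higher in flower buds, whereas the bound for the oxidase gene RBOHB was at least 313-fold towards roots and NIP1;1 differed by -7.14 ± 0.24.

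Pollen channels of this list, which are also among the 15 pollen markers, were higher in flower buds in the main fit. With normexp correction the list held 4 calls towards flower buds, and whether SPIK and CNGC18 are among these is not given here. SPIK, the target of CPK24, had values of -3.70, -4.15, -4.95 and -5.50 in flower buds and -9.75, -7.89, -8.04 and -9.24 in roots, a bound of at least 3.78-fold. CNGC18, the target of CPK32, differed by 1.36 ± 0.31. SLAH3, named as a target of CPK2, CPK20 and CPK21, was higher in roots at -3.80 ± 0.31. In the list of 19 transcription factors and enzymes described as targets, 0 were higher in flower buds and 11 in roots (0 and 9 with scaling on reference genes), with a median of -1.43. BIK1 at -2.80 ± 0.10 and WRKY28 at -2.24 ± 0.38 had the largest differences.

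Calmodulin genes, which encode the separate calcium sensors, had 2 of 7 called, CAM2 at -1.86 ± 0.17 and CAM3 at -1.11 ± 0.08, both higher in roots (1 of 7 with scaling on reference genes). Their coding sequences are closely alike, and shared binding to the probes was not tested. Among 5 genes of the abscisic acid core, the kinase gene OST1 was higher in flower buds at 1.40 ± 0.10, a call lost with normexp correction, and the phosphatase gene ABI1 was not called, at -0.75 ± 0.18. Guard cell markers, which share SLAC1 with the channel list, differed as well, since 4 of 5 were higher in flower buds and their summed linear signal was 0.836 to 1.14 in flower buds and 0.0473 to 0.0801 in roots. Their part in the values of guard cell kinases and channels was not tested.

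**Figure D5:**
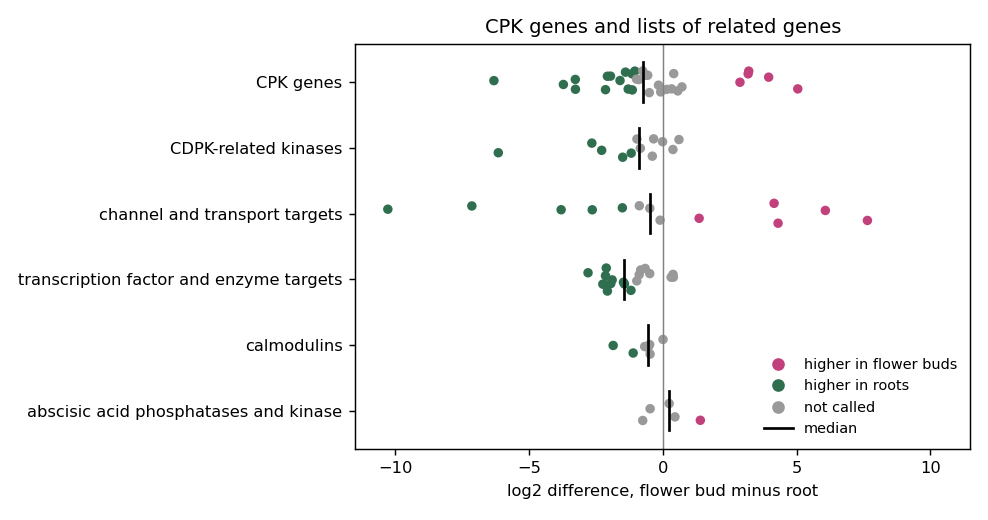
Fitted log2 difference, flower bud minus root, of each tested gene of the CPK family and of 5 lists of related genes, with the list median as a vertical line. The channel list runs from -10.28 to 7.65, and the transcription factor and enzyme list holds 0 genes called higher in flower buds.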

How the data were processed

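Each array's deposited scanner file gave spot intensity, from which Agilent Feature Extraction 10.10.1.1 had subtracted background within the array, per the file headers. The deposited table of log2 values had no stated method; it followed the scaled scanner values centred per probe (correlation of at least 0.9993), with column medians of -0.0582 to 0.0948. Here control spots and 6 to 191 outlier spots per array were left out, as were 408 repeated lines in 6 files. Log2 signals were averaged per probe and the 75th percentile of spots, 4149 to 4257 in flower buds and 2218 to 3132 in roots, was subtracted. Probes were matched through RefSeq accessions (TAIR10.1): 34285 of 43603 matched 1 locus. For each gene the probe of highest mean signal was used. A gene was tested where each array of at least 1 tissue had the probe well above background. Differences were fitted with limma 3.58.1 in R 4.3.3, tissue being the factor. The fit was tested on simulated data. A bound sets the brighter tissue's mean against the higher, per array, of the dim probe's signal and the lowest signal of any probe well above background.

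Members, lists, gene pairs and tests were chosen with earlier results of these data known. Every member is named. Values per array were set for the 6 members that differed most in each direction among those called, those with bounds and those of the chromosome 4 cluster; further values per array, SPIK, CNGC18, SLAH3, NLP6 and NLP7 were chosen after values were seen. From each list of kinases and partners the 2 genes called with the greatest change to either side are named, and marker lists are given as sums. Gene pairs follow known relatedness, since the planned comparisons of sequence identity and motifs were not made. Replicates are pools of plants, so p-values measure the spread between pools, and the number of arrays limits precision. Members given as bounds are an exception. In their dim tissue the values lie at or near the floor of the scanner software. Their SE and p-values do not measure the spread between pools there. The same limit holds in part for CPK14 and CPK16, well above background on 2 and 3 root arrays, and for CPK25, on 1 flower bud array. Replicate numbers were not used to pair the samples in the main fit. Correlations of deviations between same-numbered arrays were -0.267, 0.044, -0.005 and 0.100. The highest with a root array of another number were 0.184, 0.026, 0.211 and 0.116. Whether same-numbered pools came from the same plants cannot be told from these values.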

Additional observations from a re-analysis of the deposited data

Results flagged for a closer look

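In 4 of 54 groups of 4 arrays, 1 array lay far from the others; chance gives about 1 in 20. CPK1 in flower buds was 0.56 on replicate 4, against 0.73 to 0.74 on the other arrays, a gap of 0.984 of the range. CPK29 in flower buds was -0.18 on replicate 2, against 0.10 to 0.12 (0.914 of the range). In roots replicate 4 was highest for CPK9, at 2.13 against 1.90 to 1.92 (0.924 of the range), and for CPK28, at 2.05 against 1.33 to 1.44 (0.839 of the range).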

How the results depend on the processing

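No CPK gene that was called turned its direction under any alternative run. The count of CPK genes higher in flower buds was 3 with normexp correction and 1 when each of the 8 arrays had to be well above background, which left 23 of the 31 genes, and the count higher in roots was 8 with scaling on reference genes. That filter, refitted, left 17900 genes with 3887 called towards flower buds. With scaling on reference genes CPK1 (-0.68), CPK3 (-0.58), CPK5 (-0.68), CPK27 (-0.93) and CPK31 (-0.83) were no longer called, and CPK12 (1.18) and CPK13 (1.03) were. With normexp correction, which used the median spot signal, CPK3 (-0.97), CPK17 (1.21) and CPK20 (0.23) were not called. CPK3 was -0.85 with quantile normalization. CPK26 was called with centring on the array median (-1.05), with quantile normalization (-1.04) and without flower bud replicate 1 (-1.06), and CPK28 with centring on the array median (-1.13). Leaving out each array in turn gave -1.06 to -0.77 for CPK26 and -1.06 to -0.82 for CPK28. CPK17 and CPK24 were 4.69 and 5.73 without flower bud replicate 4. The share of all calls that were higher in flower buds was 54.1% as reported, 66.4% with scaling on reference genes, 46.2% with that filter, and 48.5% to 54.9% under the other settings. With the replicate block, 5 CPK genes were higher in flower buds and 13 in roots, as without it, and all genes gave 12176 calls against 12219. Dim signal limits CPK14, CPK16 to CPK20, CPK24 and CPK25. Beyond the fewer genes left by the filter, the cause was not tested.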
